A study of Mus musculus with 180 samples.

Results

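Inhba, Pcsk1, Nptx2, Nptx1, Scg2, Vgf, Chgb and Scg3 are 8 genes whose proteins are secreted or are carried in secretory vesicles. They are grouped here under the name of activity-regulated secretory genes, which does not mean that each is confined to neurons or changes alike. They were taken by name from the 54429 genes of the deposited count table. All 8 were found there, and all 8 passed the filter on low counts in every fit used here, with lowest counts per library of 69 for Inhba and at least 183 for each of the other 7.

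Neurons that have fired strongly transcribe, besides transcription factors, a later set of genes whose products leave the cell and act on synapses and neighbouring neurons. Inhba encodes the subunit that pairs with itself to form activin A, a ligand of the TGF-beta family. Pcsk1 encodes a convertase that cuts prohormones inside dense-core vesicles, Nptx2 and Nptx1 encode neuronal pentraxins that gather AMPA receptors at synapses, and Scg2, Vgf, Chgb and Scg3 encode granins, the cargo and organisers of dense-core vesicles. Proteins of this kind are made on ribosomes bound to the endoplasmic reticulum.

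RNA came from 30 male mice, with 6 libraries from each and 180 in all. Per the labels the mice were a cross of 2 lines, one carrying the transgene Tg(Camk2a-cre)T29-1Stl and the other named B6N.129-Rpl22tm1.1Psam/J, so every group, the untrained and sleeping mice included, carried the Cre driver and the HA-tagged ribosomal protein Rpl22. The groups were 7 mice trained by contextual fear conditioning (CFC) and then deprived of sleep (CFC SD), 8 trained mice left to sleep (CFC Sleep), 7 untrained mice deprived of sleep (NoCFC SD) and 8 untrained mice left to sleep (NoCFC Sleep). Ages and the length of the deprivation are not in the labels, which give the tissue only as brain, while the title of the series names the hippocampus. Each homogenate was divided into a membrane (pellet) and a cytosolic (supernatant) fraction, and each fraction into RNA pulled down with an antibody to pS6, the form of ribosomal protein S6 that is phosphorylated in neurons after activity, RNA pulled down through the HA tag (Camk2a, ribosomes of neurons in which the Camk2a promoter drives Cre, chiefly excitatory ones) and RNA with no capture (Input).

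Total counts ranged from 11.98 M to 26.95 M per library, and all 180 libraries lay closest to others of their own type. Values are CPM, the counts of a gene scaled to the size of its library with TMM factors. The 8 markers of inhibitory neurons summed to 734 ± 51.9 CPM in the cytosolic pS6 capture of Sleep mice, 135 ± 24.3 CPM in the cytosolic Camk2a capture and 657 ± 38.0 CPM in cytosolic Input (SD, n = 16). Mouse numbers up to 11 belonged to NoCFC mice only and numbers 12 to 22 to CFC mice only, while the last run, 23 to 30, had 2 mice in each of the 4 groups. The labels name no batch. As a share of the variance of the first principal component, these runs explained 0.778 in the membrane Camk2a capture and 0.489 in the membrane pS6 capture. The share was 0.188 in membrane Input, 0.140 in cytosolic Camk2a, 0.065 in cytosolic pS6 and 0.052 in cytosolic Input. That component held 10.6% of the variance in membrane Camk2a and 13.8% in membrane pS6. In bulk RNA, fewer cells of a type and less RNA per cell cannot be told apart.

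The stretch before the start of the gene is shown for 4 members, because these genes share regulation by activity in the literature and 3 of them hold the same letters there. RefSeq promoters on GRCm38.p6 were given for 5 of the 8 members (Inhba, Pcsk1, Scg2, Chgb and Scg3), and the 100 bases before the RefSeq start are printed 5′ to 3′ on the gene's strand. Capitals mark TGACGTCA, the palindrome known as the cAMP response element (CRE).
Pcsk1, chr13:75089757-75089856, plus strand: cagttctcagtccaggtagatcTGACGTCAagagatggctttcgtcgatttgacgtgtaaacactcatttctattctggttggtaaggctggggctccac
Scg2, chr1:79440027-79440126, minus strand: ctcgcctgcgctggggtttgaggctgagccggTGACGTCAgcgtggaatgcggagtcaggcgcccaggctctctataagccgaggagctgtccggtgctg
Chgb, chr2:132781542-132781641, plus strand: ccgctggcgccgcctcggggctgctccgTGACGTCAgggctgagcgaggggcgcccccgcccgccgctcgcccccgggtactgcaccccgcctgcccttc
Inhba, chr13:16011751-16011850, plus strand: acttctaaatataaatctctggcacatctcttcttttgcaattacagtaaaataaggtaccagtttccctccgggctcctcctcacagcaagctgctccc
The CRE began 78 bases before the start in Pcsk1, 68 bases before it in Scg2 and 72 bases before it in Chgb. In the 250 bases before the start, 508 of 32817 RefSeq promoters (1.55%) held TGACGTCA. The windows of Inhba and Scg3 held no TGACGTCA, which says only that these letters are not in them. Searched on both strands, TGACG, which lies inside the CRE, was in 17.7% of all promoters and also stood outside it once in Pcsk1 and once in Scg3, while TGANTCA (AP-1, 6.75% of promoters) matched none of the 5 and GCGNGGGCG (EGR, 4.7%) matched Chgb once. The GENCODE vM21 annotation starts Pcsk1, Scg2 and Chgb further upstream than RefSeq does, so the windows of these genes overlap GENCODE's gene bodies. The CREs of Scg2 and Chgb, and the whole Chgb window, lie inside the GENCODE gene, while the CRE of Pcsk1 lies upstream of both starts. A match is a description of letters and not of a bound site.

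The question of where the 8 mRNAs lie was answered by their levels over the 30 mice of each library type, which are given per kb of exon (GENCODE vM21) so that genes can be set side by side. In the membrane Camk2a capture, Chgb stood at 698 ± 97.4 CPM per kb, Nptx1 at 359 ± 74.8, Vgf at 275 ± 49.8 and Scg2 at 254 ± 23.5 (SD, n = 30). Scg3 followed at 89.5 ± 10.1, Nptx2 at 45.1 ± 8.69, Pcsk1 at 6.96 ± 1.61 and Inhba at 3.11 ± 0.712 CPM per kb. Nptx1, Vgf and Scg2 had overlapping ranges over mice, and Chgb overlapped Nptx1 only at the edge (481 to 896 against 234 to 487), whereas the ranges of Scg3, Nptx2, Pcsk1 and Inhba were apart from one another and from those above them. In this capture the granins and Nptx1 were thus abundant, and the convertase and the activin subunit were scarce. The order was not the same in every type. In membrane pS6 Inhba, at 9.70 CPM per kb, was above Pcsk1, at 8.22, with overlapping ranges (4.02 to 21.2 and 4.08 to 14.2).

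**Figure D1:**
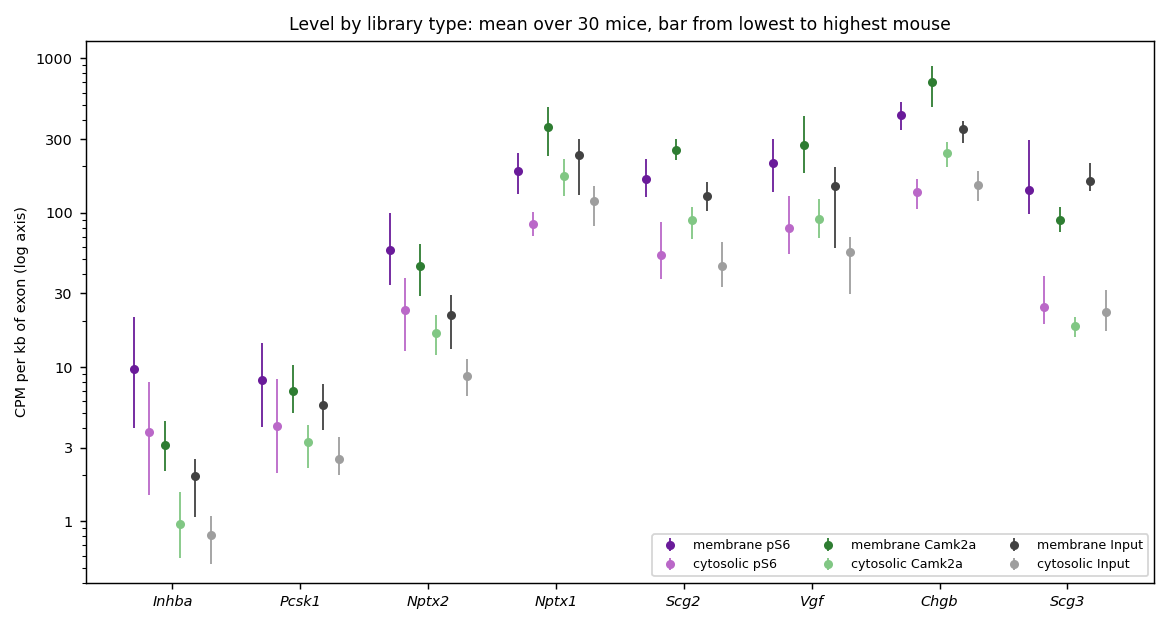
Level of each gene (CPM per kb of exon, log axis) in the 6 library types, with the point at the mean over 30 mice and the bar from the lowest to the highest mouse. Every gene is higher in the membrane fraction than in the cytosolic fraction of the same capture, and Inhba is furthest above Camk2a and Input in the pS6 capture.

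Every one of the 8 mRNAs was higher in the membrane fraction than in the cytosolic fraction, in each of the 3 kinds of library. A call here needed an edgeR quasi-likelihood adjusted p under 0.05 (Benjamini-Hochberg) and a fold of at least 2, and 8 of 8 passed in pS6, where 25.3% of all genes were called higher, 8 of 8 in Camk2a (27.9%) and 8 of 8 in Input (22%). Scg3, a granin that binds the vesicle membrane, had the largest of these 8 differences each time, at 2.53 ± 0.08 log2 in pS6, 2.38 ± 0.03 in Camk2a and 2.83 ± 0.05 in Input (estimate ± SE). Its ratio between the membrane and the cytosolic library of the same mouse ran from 4.02 to 8.49 over the 30 mice in pS6, with a median of 5.68. The other 7 genes lay between 1.00 and 1.79 log2. Pcsk1 in pS6, at 1.00 ± 0.07, and Nptx1 in Input, at 1.01 ± 0.06, were at the fold limit: Pcsk1 was at 0.95 with no filter on low counts, and Nptx1 was at 0.997 with the mouse as a block, neither of which passes. Without scaling factors, an alternative chosen after seeing the data, the 8 estimates were positive in each kind of library, but 6 of 8 passed in pS6, 6 in Camk2a and 5 in Input. There Pcsk1 was at 0.77 log2 in pS6, 0.94 in Camk2a and 0.90 in Input, Nptx1 at 0.94, 0.88 and 0.74, and Chgb at 0.94 in Input, all under the fold of 2. The median of all genes was then -0.26 log2 in pS6 (-0.03 with TMM), -0.33 in Camk2a (-0.07) and -0.38 in Input (-0.12), and the genes called higher and lower were 3709 and 3346 in pS6 (4526 and 1779 with TMM), 3690 and 3280 in Camk2a (4409 and 1616) and 2630 and 3381 in Input (3642 and 1482). Nptx1 and Vgf were each lower in the membrane than in the cytosolic Input library of 1 mouse, which was mouse 22 for both. In the other types all 30 mice had more of each gene in the membrane library.

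The captures differed most for Inhba. Its level was 9.70 ± 4.76 CPM per kb in membrane pS6, 3.11 ± 0.712 in membrane Camk2a and 1.96 ± 0.376 in membrane Input, and 3.78 ± 1.72, 0.966 ± 0.237 and 0.811 ± 0.136 in the cytosolic fractions (SD, n = 30). On the log2 scale it was higher in pS6 than in Camk2a by 1.54 ± 0.07 in the membrane fraction and 1.92 ± 0.07 in the cytosolic one, and higher in pS6 than in Input by 2.12 ± 0.06 and 2.09 ± 0.06, all 4 called. Nptx2 was called higher in pS6 than in Input as well, by 1.28 ± 0.05 log2 in the membrane fraction and 1.35 ± 0.06 in the cytosolic one. These 2 of 8 stand against 7.23% of all genes called higher in pS6 than in Input in the membrane fraction and 11.4% in the cytosolic one, and the 1 of 8 called higher in pS6 than in Camk2a (Inhba) against 16.5% and 22.3%. The pentraxin paralog Nptx1 went the other way, at 187 ± 30.7 CPM per kb in membrane pS6, 359 ± 74.8 in membrane Camk2a and 238 ± 43.8 in membrane Input. It was lower in pS6 than in Camk2a by -0.95 ± 0.05 log2 in the membrane fraction, short of the fold of 2, and by -1.02 ± 0.04 in the cytosolic fraction, where 8.36% of genes were called lower. The cytosolic call was lost at -0.96 with RLE scaling and with DESeq2, and at -0.86 without scaling factors.

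The granins were ordered in another way. Scg2, at 166 ± 29.8 CPM per kb in membrane pS6, 254 ± 23.5 in membrane Camk2a and 128 ± 12.5 in membrane Input, Vgf (210 ± 43.8, 275 ± 49.8 and 148 ± 33.5) and Chgb (430 ± 51.3, 698 ± 97.4 and 349 ± 31.5) were highest in Camk2a. Scg3, at 141 ± 43.8 in membrane pS6, 89.5 ± 10.1 in membrane Camk2a and 161 ± 17.5 in membrane Input, was lowest in Camk2a. Camk2a against Input gave -0.94 ± 0.03 log2 for Scg3 in the membrane fraction and -0.47 ± 0.04 in the cytosolic one, while Scg2, Chgb and Vgf were at 0.89 ± 0.03, 0.90 ± 0.04 and 0.79 ± 0.08 in the membrane fraction. None of the 8 reached the fold of 2 between Camk2a and Input in either fraction, where 1.9% (membrane) and 0.371% (cytosolic) of genes were called higher and 16.8% and 16.5% lower, but without scaling factors Scg3 passed in the membrane fraction at -1.05. Astrocyte markers summed to 915 ± 183 CPM in the membrane Camk2a capture and 3288 ± 313 CPM in membrane Input of Sleep mice (SD, n = 16), and their part in the level of Scg3 was not tested.

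After sleep deprivation 5 of the 8 genes rose in the pS6 capture, and Inhba rose in all 6 library types. The comparison asks which secretory mRNAs differ after sleep loss, on which ribosomes, and it averages over trained and untrained mice. In membrane pS6 5 of 8 members were called higher, where 1.11% of 16637 genes were, and in cytosolic pS6 5 of 8, where 4.6% of 16485 genes were. In the membrane and cytosolic Camk2a captures 1 of 8 was called higher (2.16% and 4.13% of genes), as in membrane and cytosolic Input (1.05% and 2.04%), and that 1 was Inhba each time. No member was called lower in any type, where the share of genes called lower was 0.619% in membrane pS6, 3.28% in cytosolic pS6, 0.802% in membrane Camk2a, 2.15% in cytosolic Camk2a, 0.32% in membrane Input and 1.13% in cytosolic Input. The median change of the 8 was 0.39 log2 in membrane pS6 and 0.48 in cytosolic pS6, beside -0.004 and 0.003 for all genes. The members, like the gene lists compared below, were chosen with earlier results of these data known. Counts set beside the shares of all genes are therefore a description and no test of enrichment.

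**Figure D2:**
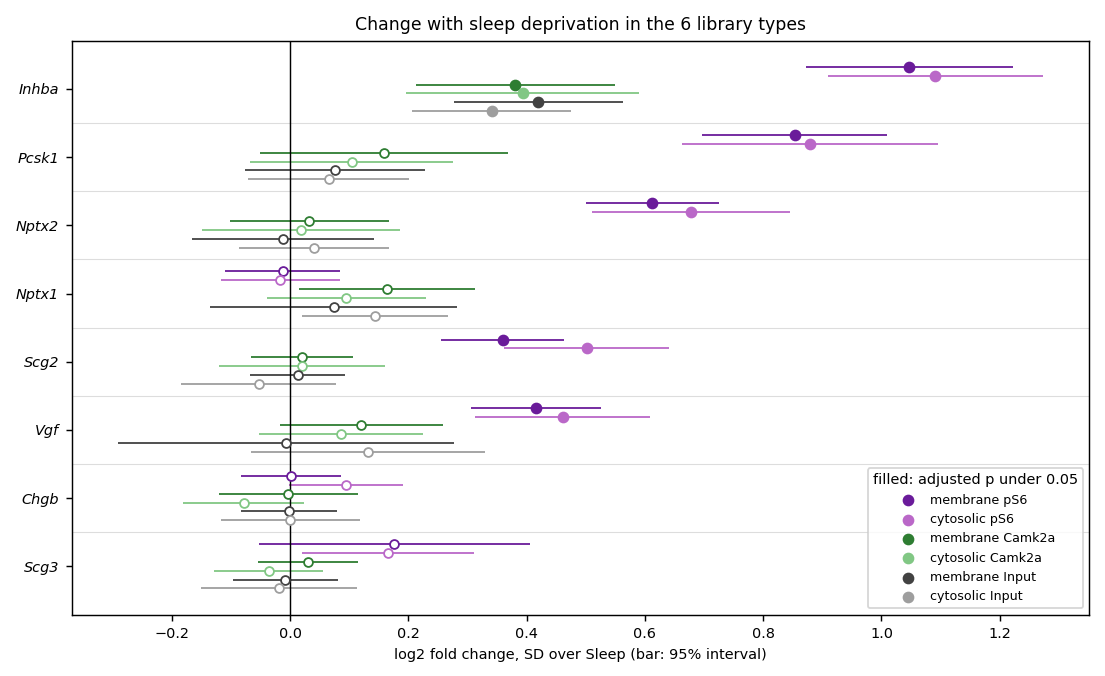
Log2 fold change of SD over Sleep for each gene in the 6 library types, with bars for the 95% interval and filled points for an edgeR adjusted p under 0.05. Inhba is filled in all 6 types, Pcsk1, Nptx2, Scg2 and Vgf only in the pS6 captures, and Nptx1, Chgb and Scg3 in none.

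Inhba, the activin subunit (chr13:16011851-16031621, GRCm38, plus strand), changed most. In membrane pS6 its lowest, median and highest values were 53.2, 106 and 136 CPM in CFC SD mice, against 40.2, 51.2 and 68.6 CPM in CFC Sleep mice. Untrained mice had 52.7, 67.2 and 83.9 CPM in the NoCFC SD group, against 25.7, 30.0 and 35.5 CPM in the NoCFC Sleep group. SD and Sleep did not overlap in untrained mice, and in trained mice 6 of 7 SD mice lay above all 8 Sleep mice. In cytosolic pS6 the values were 30.1, 34.1 and 50.7 CPM in CFC SD mice, against 15.5, 19.4 and 22.6 CPM in CFC Sleep mice. Among untrained mice they were 20.7, 26.9 and 42.5 CPM in NoCFC SD mice, against 9.41, 12.4 and 16.1 CPM in NoCFC Sleep mice. Here SD and Sleep did not overlap in either training group. The change was 1.05 ± 0.09 log2 in membrane pS6 (edgeR adjusted p = 5.59e-10) and 1.09 ± 0.09 in cytosolic pS6 (adjusted p = 3.32e-10), and in both it had rank 18 when all genes tested were ordered by log2 change from the highest.

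Outside the pS6 capture the same gene rose by less. Its change was 0.38 ± 0.09 log2 in membrane Camk2a (edgeR adjusted p = 0.00701), 0.39 ± 0.10 in cytosolic Camk2a (0.0125), 0.42 ± 0.07 in membrane Input (0.000776) and 0.34 ± 0.07 in cytosolic Input (0.00252). In membrane Input the lowest, median and highest values were 13.4, 14.3 and 16.04 CPM in CFC SD mice, against 9.58, 11.3 and 14.5 CPM in CFC Sleep mice, and 12.8, 14.3 and 16.2 CPM in NoCFC SD mice, against 6.83, 9.97 and 14.1 CPM in NoCFC Sleep mice. SD and Sleep overlapped in both training groups there. Levels of 69 to 196 counts per library make Inhba the least precisely counted of the 8 genes in the cytosolic Camk2a and Input libraries.

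Pcsk1, the convertase (chr13:75089826-75134861, plus strand), was called in the membrane and cytosolic pS6 captures and in none of the other 4 types. In membrane pS6 it had 44.2, 58.1 and 79.8 CPM (lowest, median and highest) in the 14 SD mice, against 22.9, 31.8 and 52.7 CPM in the 16 Sleep mice. In cytosolic pS6 it had 17.6, 29.4 and 47.0 CPM in SD mice, against 11.5, 16.9 and 22.6 CPM in Sleep mice. In the cytosolic capture 13 of 14 SD mice lay above every Sleep mouse, in the membrane capture 10 of 14, so the ranges overlapped in both. The changes were 0.85 ± 0.08 log2 (edgeR adjusted p = 2.98e-09) and 0.88 ± 0.11 (adjusted p = 1.75e-06). In Camk2a the estimates were 0.16 ± 0.11 in the membrane fraction and 0.10 ± 0.09 in the cytosolic one, and in Input 0.08 ± 0.08 and 0.07 ± 0.07.

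The pentraxins parted. Nptx2 (chr5:144545902-144557478, plus strand), the pentraxin known as an activity-induced gene, had 114, 168 and 254 CPM in the 14 SD mice of membrane pS6, against 86.5, 112 and 152 CPM in the 16 Sleep mice. In cytosolic pS6 it had 47.6, 73.7 and 96.0 CPM in SD mice, against 32.01, 46.6 and 61.5 CPM in Sleep mice. All 14 SD mice were above the Sleep median in both, and 9 and 11 of them were above all Sleep mice, so the ranges overlapped. The changes were 0.61 ± 0.06 log2 (edgeR adjusted p = 2.98e-09) and 0.68 ± 0.09 (adjusted p = 1.55e-06). Nptx1 (chr11:119538719-119547753, minus strand) had 759, 953 and 1230 CPM in SD mice of membrane pS6, against 694, 974.7 and 1263 CPM in Sleep mice, and in cytosolic pS6 367, 435 and 521 CPM, against 378, 434 and 529 CPM in Sleep mice. The groups of Nptx1 overlapped throughout, with 7 of 14 SD mice above the Sleep median in each fraction. Its estimate of -0.01 log2 in membrane pS6 had a 95% interval from -0.11 to 0.09, and that of -0.02 in cytosolic pS6 one from -0.12 to 0.08. In membrane Camk2a Nptx1 was at 0.16 ± 0.08 (edgeR adjusted p = 0.294), not called.

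Among the granins Scg2 and Vgf rose in pS6, and Chgb and Scg3 were not called. Scg2 (chr1:79434669-79440120, minus strand), the precursor of secretoneurin, had 373, 480 and 561 CPM in SD mice of membrane pS6, against 316, 371 and 462 CPM in Sleep mice, and in cytosolic pS6 108, 162 and 220 CPM in SD mice, against 93.5, 107 and 146 CPM in Sleep mice. Vgf (chr5:137026392-137033351, plus strand), the precursor of several neuropeptides, had 541, 735 and 899 CPM in SD mice of membrane pS6, against 404, 543 and 681 CPM in Sleep mice, and in cytosolic pS6 195, 272 and 382 CPM, against 160, 195 and 279 CPM in Sleep mice. For each of them the ranges overlapped, and 13 or 14 of 14 SD mice were above the Sleep median. Scg2 changed by 0.36 ± 0.05 log2 in membrane pS6 (edgeR adjusted p = 4.28e-05) and 0.50 ± 0.07 in cytosolic pS6 (9.23e-06). Vgf changed by 0.42 ± 0.06 (8.97e-06) and 0.46 ± 0.08 (9.75e-05).

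Chgb (chr2:132781278-132795079, plus strand), a granin stored at high level in dense-core vesicles, shares the CRE shown above with Pcsk1 and Scg2, which rose. Chgb itself had 965, 1153 and 1416 CPM in SD mice of membrane pS6, against 944, 1182 and 1437 CPM in Sleep mice, and in cytosolic pS6 329, 381 and 451 CPM, against 291, 368 and 416 CPM in Sleep mice. SD and Sleep mice overlapped in both: in membrane pS6 no SD mouse lay above all Sleep mice, while in cytosolic pS6 3 of 14 SD mice did and 3 of 16 Sleep mice lay below all SD mice. The estimates were 0.00 log2 (95% interval -0.08 to 0.09) and 0.09 (95% interval -0.002 to 0.191). Scg3 (chr9:75643189-75684056, minus strand) had estimates of 0.18 ± 0.12 log2 in membrane pS6 (edgeR adjusted p = 0.53) and 0.17 ± 0.07 in cytosolic pS6 (0.186), with intervals from -0.05 to 0.40 and from 0.02 to 0.31. The 5 astrocyte markers, none of them called, had a median change of 0.27 log2 in membrane pS6 and 0.40 in cytosolic pS6, and their part in the Scg3 estimates was not tested.

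**Figure D3:**
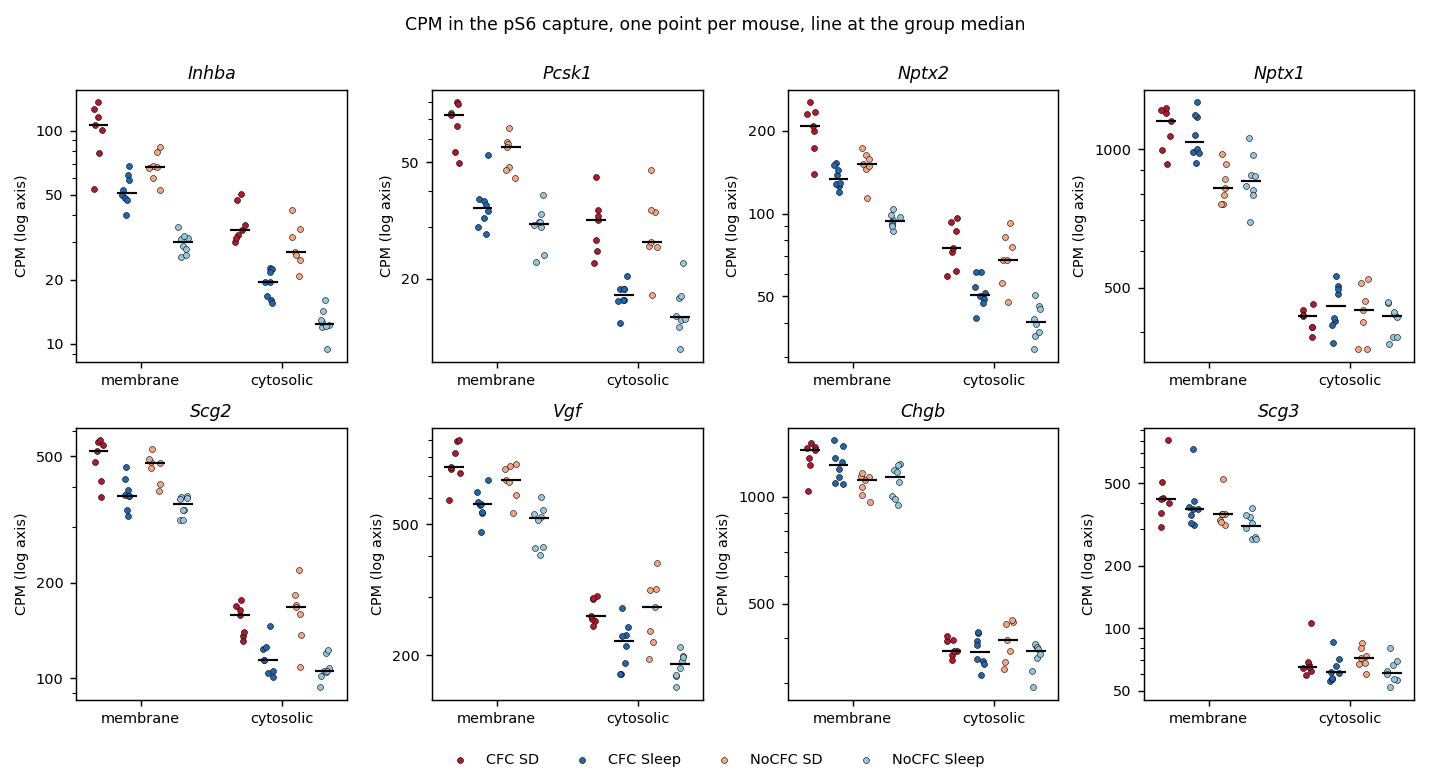
CPM (log axis) of each gene in the membrane and cytosolic pS6 captures, with one point per mouse and a line at the group median. For Inhba, Pcsk1, Nptx2, Scg2 and Vgf the medians of the SD groups lie above those of the Sleep groups of the same training, though some points overlap for each gene. The points of Nptx1 and Chgb overlap throughout, and Scg3 holds mice far above the rest.

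Within the runs of mouse numbers the direction was the same. SD was higher than Sleep in all 3 runs for Inhba, Pcsk1, Nptx2, Scg2 and Vgf in both pS6 fractions, with mean differences of 0.82 to 1.16 log2 CPM for Inhba in membrane pS6 and 0.698 to 1.499 in cytosolic pS6. The smallest was 0.27, for Vgf in cytosolic pS6. With the run as a term the 5 calls in each pS6 fraction and the call of Inhba in the other 4 types held, and without mouse 22, whose membrane Input and cytosolic pS6 libraries stood apart on the first principal component, the counts of called members were also 5 in each pS6 fraction and 1 in each other type.

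Whether the SD change was larger in the pS6 capture than in another library type was tested as a difference between the 2 changes, in fits of 60 libraries. Against Camk2a, 4 of 8 members changed more in pS6, in the membrane fraction (0.053% of genes called higher) and in the cytosolic fraction (0.365%). Against Input it was again 4 of 8 in the membrane fraction (0.0994%) and in the cytosolic fraction (0.508%). The 4 were Inhba, Pcsk1, Nptx2 and Scg2 each time. The difference from Camk2a was 0.68 ± 0.13 log2 in the membrane fraction and 0.70 ± 0.14 in the cytosolic one for Inhba, 0.70 ± 0.13 and 0.77 ± 0.14 for Pcsk1, 0.59 ± 0.09 and 0.66 ± 0.13 for Nptx2, and 0.35 ± 0.07 and 0.48 ± 0.10 for Scg2, with edgeR adjusted p from 0.000145 to 0.01. The difference from Input ran from 0.35 ± 0.07 (Scg2, membrane) to 0.81 ± 0.13 (Pcsk1, cytosolic), with adjusted p from 4.5e-05 to 0.00893. These comparisons share the pS6 libraries.

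The ratio of the pS6 to the Camk2a library of the same mouse shows the same difference mouse by mouse. For Nptx2 in the membrane fraction it was 1.08, 1.62 and 1.87 (lowest, median and highest) in the 14 SD mice, against 0.798, 1.04 and 1.17 in the 16 Sleep mice, and 13 of 14 SD mice exceeded every Sleep mouse. For Pcsk1 in the membrane fraction it was 1.01, 1.49 and 2.19 in SD mice, against 0.702, 0.848 and 1.27 in Sleep mice. So the CPM of Pcsk1 in that fraction was higher in the pS6 than in the Camk2a library in all 14 SD mice and 5 of 16 Sleep mice. These CPM are shares of a library, and where the ratio crosses 1 depends on the scaling. The level difference was 0.20 log2 with TMM (mouse as a block) and 0.33 without scaling factors. For Scg2 the ratio to Input in the cytosolic fraction was 1.18, 1.42 and 1.70 in SD mice, against 0.751, 0.985 and 1.12 in Sleep mice, with no overlap. Its ratio to Camk2a overlapped, with 13 of 14 SD mice above every Sleep mouse in each fraction. For Inhba the ratio to Camk2a did so in 10 of 14 SD mice (membrane) and 9 (cytosolic), and that to Input in 4 and 11. How many other genes separate in this way was not counted.

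With the mouse as a block, which uses the pairing of libraries, the 4 calls held in all 4 comparisons and more genes were called: 43 with the block and 10 without against Camk2a in the membrane fraction, 392 and 98 in the cytosolic one, 40 and 19 against Input in the membrane fraction and 388 and 115 in the cytosolic one. Vgf joined them against Camk2a, at 0.30 ± 0.07 log2 in the membrane fraction (edgeR adjusted p = 0.0421 with the block, 0.557 without) and 0.37 ± 0.06 in the cytosolic one (8.38e-05 with, 0.116 without). Chgb joined in the cytosolic fraction against Camk2a at 0.17 ± 0.04 (0.0166 with, 0.477 without). Nptx1 was lower in its response in cytosolic pS6 than in Input, at -0.16 ± 0.05 (0.0495 with, 0.672 without).

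No member's change was called different between Camk2a and Input, or between the membrane and the cytosolic fraction of any kind of library. In these 5 comparisons edgeR called 0 of 8 members with or without the block, and, without the block, 0 genes (0.0%) except 2 (0.0122%) in cytosolic Camk2a against Input. At an unadjusted p under 0.05 there were 391 to 842 genes, and DESeq2 called 3 genes in cytosolic Camk2a against Input and 0 in the other 4. For Inhba the membrane minus cytosolic difference in pS6 was -0.04 ± 0.14 log2, with a 95% interval from -0.31 to 0.23, and for Scg2 it was -0.13 ± 0.09, with one from -0.32 to 0.05.

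Genes of the same pathways give the setting of these changes. Of 7 immediate-early genes, the transcription factors and effectors that follow firing within minutes, 4 were called higher in membrane pS6 (1.11% of all genes) and 7 in cytosolic pS6 (4.6%), with Fos at 1.03 ± 0.15 and 1.43 ± 0.13 log2, and the list median was 0.64 and 0.93. In the other 4 library types 3 or 4 of the 7 were called higher. Of all genes 2.16% were called higher in membrane Camk2a, 4.13% in cytosolic Camk2a, 1.05% in membrane Input and 2.04% in cytosolic Input. Among 13 other secreted factors and neuropeptides, 7 rose in membrane pS6 and 9 in cytosolic pS6, against the same shares of all genes. Bdnf, a neurotrophin, was at 0.64 ± 0.06 and 0.57 ± 0.06, Crh, a peptide of interneurons in the hippocampus, at 0.83 ± 0.10 and 1.04 ± 0.13, and Npy at 0.47 ± 0.07 and 0.52 ± 0.08. Nrn1, Cck, Penk and Igf1 were not called in either fraction. Outside pS6 the calls in this list were Bdnf, which was lower in cytosolic Camk2a at -0.17 ± 0.05 log2 (edgeR adjusted p = 0.0378), and Crh, higher in membrane Input at 0.37 ± 0.10 (0.0462). In cytosolic Camk2a 2.15% of all genes were called lower.

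The machinery around the members was compared in the same way. Of 12 dense-core vesicle genes, which encode further granins, convertases and release factors, 0 were called in membrane pS6 (1.11% of all genes higher, 0.619% lower) and 1 in cytosolic pS6 (4.6% and 3.28%), the amidating enzyme Pam at 0.22 ± 0.06 log2 (edgeR adjusted p = 0.0234). Pcsk2, the other neuronal convertase, was at -0.08 ± 0.04 and -0.10 ± 0.05, and Chga at 0.02 ± 0.05 and 0.05 ± 0.05, none of them called. Of 15 genes of the activin pathway 14 were tested (Fstl3 was not), with 0 called in membrane pS6 and 3 in cytosolic pS6, 2 of them higher and 1 lower. There Inhbb, which encodes the subunit of activin B, fell by -0.42 ± 0.08 log2 (0.000458), while Smad3, which carries the activin signal, was at 0.24 ± 0.05 (0.00124) and its inhibitor Smad7 at 0.23 ± 0.06 (0.0071). Inha, which encodes the inhibin alpha subunit, was not called in pS6 but fell by -0.26 ± 0.07 log2 in cytosolic Camk2a (edgeR adjusted p = 0.00928) and by -0.49 ± 0.09 in cytosolic Input (0.000451). The activin receptors Acvr1, Acvr1b, Acvr1c, Acvr2a and Acvr2b were not called. Of the 6 pentraxin partners (Nptxr, the AMPA receptor subunits Gria1 to Gria4 and the protease Adam17), 0 were called in either pS6 fraction, with list medians of 0.01 and 0.00 log2.

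Markers of inhibitory neurons moved with sleep deprivation in the same capture. All 8 (Gad1, Gad2, Slc32a1, Sst, Pvalb, Vip, Lhx6 and Dlx1) were called higher in cytosolic pS6 (4.6% of all genes) and 3 (Sst, Slc32a1 and Vip) in membrane pS6 (1.11%), and Sst is also in the neuropeptide list above. Their summed level was 1708 ± 183 CPM (range 1456 to 2025) in SD mice of membrane pS6, against 1331 ± 143 CPM (1086 to 1529) in Sleep mice, and 918 ± 79.5 CPM (810 to 1082) in SD mice of cytosolic pS6, against 734 ± 51.9 CPM (622 to 829.3) in Sleep mice (SD, n = 14 and 16). In Input the sums were 1139 ± 61.6 CPM in SD mice, against 1170 ± 95.9 CPM in Sleep mice in the membrane fraction, and 638 ± 26.5 CPM, against 657 ± 38.0 CPM in the cytosolic fraction. Of 4 markers of CA1 pyramidal cells 2 were called lower in each pS6 fraction (0.619% of all genes in membrane pS6, 3.28% in cytosolic pS6). Their sum was 1252 ± 120 CPM in SD mice, against 1396 ± 144 CPM in Sleep mice in membrane pS6, and 462 ± 44.7 CPM, against 541 ± 56.8 CPM in cytosolic pS6. Markers of dentate granule cells summed to 470 ± 57.3 CPM in SD mice, against 479 ± 71.8 CPM in Sleep mice in membrane pS6, and to 222 ± 22.9 CPM, against 203 ± 26.8 CPM in cytosolic pS6. No defining marker of these lists was at 0. Their part in the changes of Inhba, Pcsk1, Nptx2, Scg2 and Vgf was not tested.

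Training was compared in the same fits, averaging over sleep. CFC was called higher for 4 of 8 members in membrane pS6 (8.1% of genes), 1 of 8 in cytosolic pS6 (0.127%) and 3 of 8 in membrane Camk2a (9.81%), and for 0 of 8 in cytosolic Camk2a (0.128%), membrane Input (3.63%) and cytosolic Input (0.169%). DESeq2 called 0 of 8 in those last 3 as well, where edgeR found 3366 genes in membrane Input at an unadjusted p under 0.05 and 1144 in cytosolic Camk2a. No member was called lower, beside 8.75% of genes in membrane pS6, 0.00607% in cytosolic pS6, 7.17% in membrane Camk2a, 0.0202% in cytosolic Camk2a, 2.9% in membrane Input and 0.0502% in cytosolic Input. Up to mouse 22 training and the run of numbers cannot be told apart. A fit with the run as a term therefore takes its CFC estimate from the last run, which has 4 CFC and 4 NoCFC mice.

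In membrane pS6 the 4 were Inhba, Nptx2, Nptx1 and Chgb. In the Inhba values given above by group, CFC Sleep mice lay above all NoCFC Sleep mice, while CFC SD and NoCFC SD mice overlapped, and the CFC effect was 0.63 ± 0.09 log2 (edgeR adjusted p = 1.43e-05). Nptx2 had 139, 208 and 254 CPM (lowest, median and highest) in CFC SD mice, against 114, 152 and 173 CPM in NoCFC SD mice, and 120, 133 and 152 CPM in CFC Sleep mice, against 86.5, 94.2 and 104 CPM in NoCFC Sleep mice. The Sleep groups of Nptx2 did not overlap, and the SD groups did. Its effect was 0.40 ± 0.06 (1.23e-05), that of Nptx1 0.28 ± 0.05 (0.000177) and that of Chgb 0.12 ± 0.04 (0.0424).

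With the run as a term 2 of these 4 calls held, Inhba at 0.78 ± 0.16 log2 (edgeR adjusted p = 0.046) and Nptx2 at 0.54 ± 0.10 (0.0146), among 12 genes called in all, against 2803 without the term. Within that last run the mean log2 CPM of Inhba was 6.44 in CFC mice and 5.604 in NoCFC mice, a difference of 0.84, and that of Nptx2 was 7.56 and 6.96, a difference of 0.60. Nptx1 was at 0.23 ± 0.08 (0.259) and Chgb at 0.24 ± 0.08 (0.258) with the term, no longer called. In cytosolic pS6 Inhba was at 0.47 ± 0.09 (0.0226) without the term and 0.47 ± 0.18 (0.996) with it. In membrane Camk2a the calls of Nptx2 (0.31 ± 0.07), Nptx1 (0.32 ± 0.08) and Scg3 (0.20 ± 0.04) were lost with the term, at 0.31 ± 0.12, 0.19 ± 0.11 and 0.19 ± 0.08, as were all but 1 of the 2542 genes called.

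**Figure D4:**
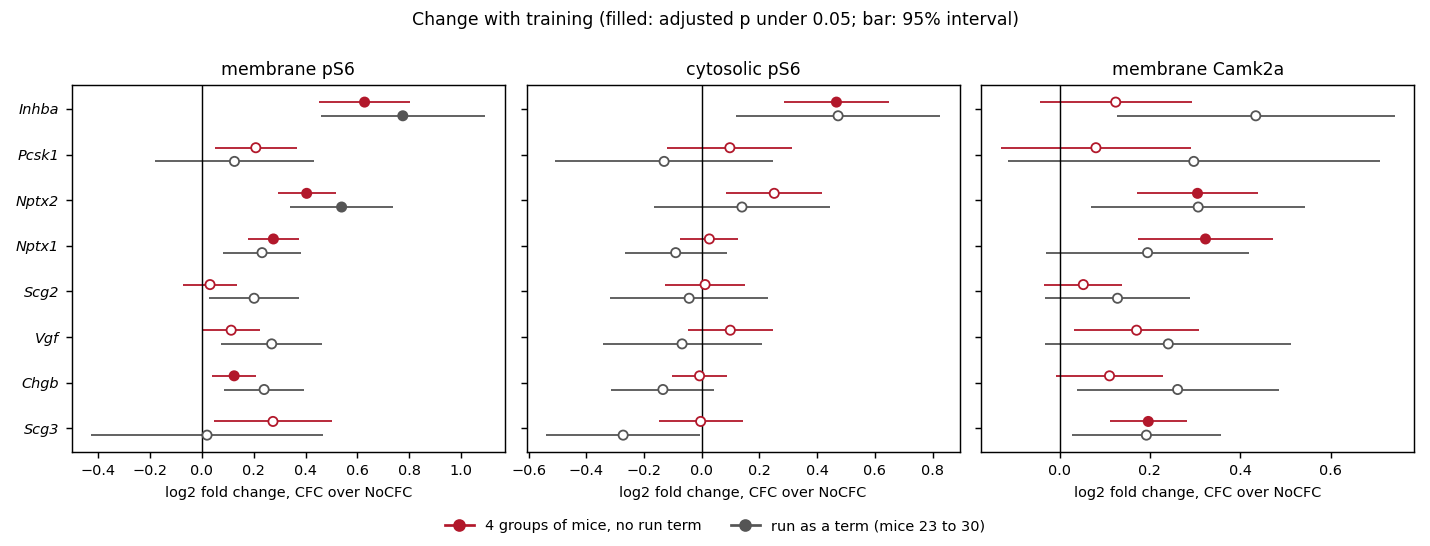
Log2 fold change of CFC over NoCFC for each gene in 3 library types, from the fit of 4 groups (red) and with the run of mouse numbers as a term (grey), with bars for the 95% interval and filled points for an edgeR adjusted p under 0.05. With the term only Inhba and Nptx2 in membrane pS6 are filled, and its bars are wider.

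Whether the SD change depended on training was tested as an interaction. It was called for 0 of 8 members and 0.0% of genes in all 6 types by edgeR, with 295 to 712 genes at an unadjusted p under 0.05, and for 0 genes by DESeq2. For Inhba the estimate was -0.27 ± 0.18 log2 in membrane pS6 and -0.28 ± 0.19 in cytosolic pS6. For Pcsk1 it was 0.08 ± 0.16 and -0.11 ± 0.22.

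The members were then compared mouse by mouse in cytosolic pS6, after removal of the 4 group means, over 30 mice. Of 28 pairs 26 had a positive Pearson's r, with a median of 0.57, and 18 passed at an adjusted permutation p under 0.05 for r and 17 for Spearman's rho. The highest was Vgf with Chgb, at r = 0.83 (permutation, adjusted p = 5.6e-05, the smallest the resamples allow after adjustment), rho adjusted p = 0.00014, and r = 0.79 without the 2 mice farthest in Vgf. Nptx2 correlated with Vgf at 0.81 and with Scg2 at 0.80, and stayed at 0.73 and 0.71 without the 2 farthest mice. Nptx1 and Chgb, which were not called for SD, correlated at 0.75 with each other, and Nptx1 with Inhba at 0.23 (permutation, adjusted p = 0.37). Some pairs of Pcsk1 rested in part on the 2 farthest mice: with Vgf its r of 0.46 was 0.14 without them, while with Inhba it stayed at 0.58. Scg3 passed with none of the other 7, with r from -0.02 to 0.17, but the runs of mouse numbers differed: r was 0.27 to 0.87 in mice 1 to 11, -0.74 to -0.19 in mice 12 to 22 and -0.03 to 0.43 in mice 23 to 30. Vgf with Chgb was at 0.80, 0.84 and 0.87 in these runs, and Nptx2 with Vgf at 0.87, 0.82 and 0.65. The values of a mouse come from 1 library, and the part of library quality in these correlations was not tested. Pairs of other genes were not correlated, so the 18 passing pairs have no background share beside them and describe the members only.

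**Figure D5:**
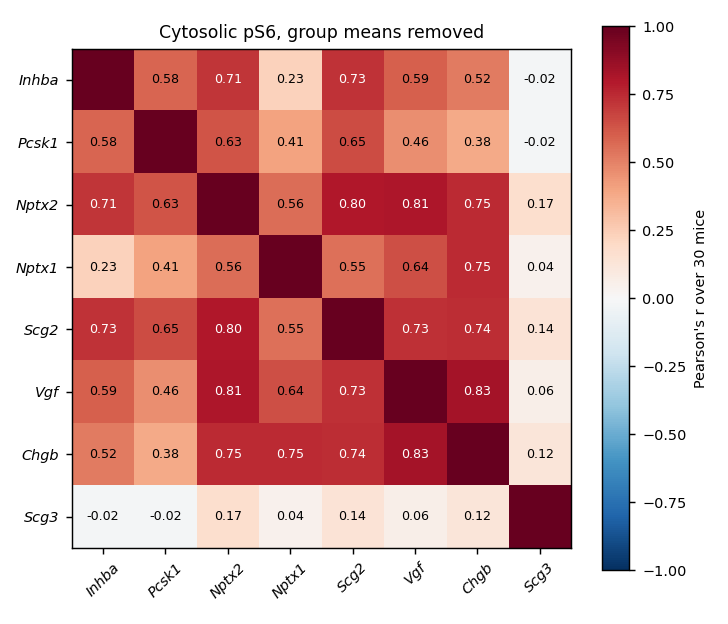
Pearson's r between pairs of genes over 30 mice in cytosolic pS6, on log2 CPM with the 4 group means removed. Vgf with Chgb is the highest pair at 0.83, and the row of Scg3 lies between -0.02 and 0.17.

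The deviations of a mouse in cytosolic pS6 were compared with those in its membrane pS6 library. Over the 8 members, r between the fractions of the same mouse had a median of 0.21, and 1 passed for r and 0 for rho. That 1 was Scg3, with r = 0.70 (permutation, adjusted p = 0.0104) and rho = 0.39 (permutation, adjusted p = 0.166), and r was 0.38 without the 2 farthest mice, so the relation rests on those samples. By run of mouse numbers r was -0.08 up to mouse 11, 0.90 from mouse 12 to 22 and 0.45 in the last run. Scg3 was highest in mouse 19 (CFC SD) and next in mouse 12 (CFC Sleep) in both fractions, at 805 and 730 CPM in membrane pS6, against 269 to 525 CPM in the other 28 mice, and 106 and 86.0 CPM in cytosolic pS6, against 51.9 to 85.0 CPM. The 5 astrocyte markers summed to 4953 and 4316 CPM in the membrane pS6 libraries of these 2 mice, against 1394 to 2953 CPM in the others, and to 534 and 375 CPM in the cytosolic ones, against 106 to 309 CPM. Their part in the level of Scg3 was not tested.

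Over the 24 means of 6 library types by 4 groups, the genes whose log2 CPM ran closest to a member's were, by Pearson's r among 12734 genes, Ism1 (0.97), Mfhas1 (0.96) and Chrna1 (0.96) for Inhba, and Kitl (0.97), Sstr2 (0.96) and Mest (0.96) for Pcsk1. For Nptx2 they were Slc25a14, Brinp1 and Epha5 (0.97 each), and for Nptx1 Qsox2, Npnt and Slc39a10 (0.99 each). For Scg2 they were Nts, Hspa4 and Pdyn (0.99 each), of which Nts and Pdyn encode neuropeptides, and for Vgf Scn4b (0.99), Kcnf1 (0.99) and Sidt1 (0.98). For Chgb they were Cacna2d1, Plxna1 and Slc7a14, and for Scg3 Fam213a, B2m and Slc1a4 (1.00 each). Among the members, Scg2 ran with Vgf and with Chgb at 0.98, and Inhba with Nptx1 at 0.16. Fraction and capture make up most of the spread of these means, and the libraries share them, so the values are a description with no test.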

How the data were processed

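RNA of 30 mice was sequenced as 6 libraries each with SMART-seq v4 chemistry, per the labels' protocols. The authors deposited raw counts per gene for 180 libraries. Per the submitters' processing notes STAR 2.6.1a, featureCounts and MultiQC 1.6a0 were used with GRCm38.p6, while annotation, settings and strand handling are not given in the sources used here. No member's exons overlap another gene in GENCODE vM21.

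Counts were fitted with edgeR 4.0.16 in R 4.3.3 (filterByExpr, TMM, robust quasi-likelihood), with Benjamini-Hochberg adjustment over all genes tested, a threshold of 0.05 and, for levels between library types, a fold of at least 2. The fits of SD, CFC and their interaction used the 30 libraries of a type, and comparisons of types used 60. Correlations used 100000 permutations, and figures matplotlib 3.10.9. The script was tested on simulated counts. The SE of an edgeR estimate is its absolute log2 change divided by the square root of the F statistic of its test. Intervals are 95% and normal, from that SE.

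The protocol divides each fraction into Input and both captures, so same-numbered libraries come from one mouse, and the median residual r was 0.108 for same numbers and -0.004 for others. Alternatives were RLE scaling, no filter, DESeq2 1.42.0, the run of mouse numbers as a term, the mouse as a block and, chosen after seeing the data, leaving out mouse 22 and, for comparisons of types, no scaling factors. The members and gene lists were chosen with earlier results of these data known. The genes named most like each member are the 3 highest by Pearson's r over 24 group means.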

Additional observations from a re-analysis of the deposited data

Results flagged for a closer look

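The SD change differed between captures, by a test of the difference itself, for Inhba, Pcsk1, Nptx2 and Scg2. For pS6 minus Camk2a in the membrane fraction the differences were 0.68, 0.70, 0.59 and 0.35 log2 in that order of genes. In the cytosolic fraction they were 0.70, 0.77, 0.66 and 0.48. For pS6 minus Input they were 0.63, 0.78, 0.63 and 0.35 in the membrane fraction, and 0.75, 0.81, 0.63 and 0.55 in the cytosolic fraction.

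In 12 of 192 gene, type and group combinations 1 mouse lay far from the rest of its group, where about 10 would do so by chance. Scg3 stood out in membrane pS6 in mouse 19 of the CFC SD group at 805 CPM, in mouse 12 of the CFC Sleep group at 730.5 CPM and in mouse 27 of the NoCFC SD group at 525 CPM. It did so in cytosolic pS6 in mouse 19 at 106 CPM and in cytosolic Camk2a in mouse 30 of the CFC SD group at 54.8 CPM. Pcsk1 did so in membrane pS6 in mouse 13 of the CFC Sleep group at 52.7 CPM, and in cytosolic Input in mouse 15 of the CFC Sleep group at 11.3 CPM and mouse 28 of the NoCFC SD group at 18.2 CPM. Mouse 16 of the CFC Sleep group stood apart in membrane Input for Nptx1 at 697 CPM and for Vgf at 204.5 CPM. In that type mouse 22 of the CFC SD group was lower still, at 677 and 177 CPM. Mouse 30 of the CFC SD group had 983 and 247 CPM there, and neither of these mice was flagged within its group. Nptx2 stood apart in membrane Camk2a in mouse 27 of the NoCFC SD group at 128 CPM, and Scg2 in cytosolic Input in mouse 6 of the NoCFC Sleep group at 163 CPM.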

How the results depend on the processing

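Of 1584 recomputed member effects 1500 kept direction and call, 58 changed sign with neither value called, 19 lost the call, 7 gained it and 0 reversed. The SD calls of members held under every alternative run.

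With the run of mouse numbers as a term, which leaves fewer mice for CFC, the genes called for CFC were 12 in membrane pS6 (2803 without), 2 in cytosolic pS6 (22), 1 in membrane Camk2a (2542), 0 in cytosolic Camk2a (22), 0 in membrane Input (1022) and 0 in cytosolic Input (35), the members called were 2 in membrane pS6 (4), 0 in cytosolic pS6 (1) and 0 in membrane Camk2a (3), and the interaction called 1 gene in cytosolic Input (0). With DESeq2 CFC called 53 genes in cytosolic Camk2a, 79 in cytosolic Input and 50 in cytosolic pS6, there 40 higher and 10 lower (21 and 1 in edgeR). With no filter it called 14 in cytosolic Camk2a, 20 in cytosolic Input and 0 members in cytosolic pS6, where Inhba was at 0.46 (edgeR adjusted p = 0.0733), and SD called 322 genes in cytosolic Input (506). Without mouse 22 CFC also called Chgb in membrane Camk2a at 0.15 (edgeR adjusted p = 0.0443) and Pcsk1 in membrane pS6 at 0.23 (0.0408).

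With no filter the level comparisons called 9096 genes for pS6 against Camk2a (cytosolic; 5137 with it) and 9289 (membrane; 3037), 6979 and 8310 for pS6 against Input (3459, 1855), 7088 and 6812 for Camk2a against Input (2764, 3019), and 10437 and 13360 for membrane against cytosolic in Camk2a and pS6 (6025, 6305). It also moved the median of all genes by over 0.1 log2 in 10 comparisons, up to 0.52 from -0.03 in membrane against cytosolic pS6. RLE scaling and DESeq2 each called 1 member, not 2, for cytosolic pS6 against Camk2a. Without scaling factors the members called were 1 (2 with TMM) there, 1 (0) for membrane Camk2a against Input and 5 (8) for membrane against cytosolic Input, and the genes called higher and lower in cytosolic pS6 against Camk2a were 4395 and 730 (3738 and 1399). The median of all genes moved by over 0.1 log2 in 7 comparisons of levels, furthest to -0.38 from -0.12 in membrane against cytosolic Input.

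With the replicate block (mouse) the difference in SD change called 392 genes (98) and 43 (10; 16 with no filter) for pS6 against Camk2a in the cytosolic and membrane fractions, 388 (115) and 40 (19) for pS6 against Input, and 5 (2) and 1 (0) for Camk2a against Input. Besides the members named with the block above, it changed 1 call, that of Nptx1 between fractions of Input. With group means within runs removed, 0 members correlated between the pS6 fractions. The cause of these moves was not tested. In cytosolic Input and Camk2a the counts of Inhba limit the precision.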
